A study of Phanerodontia chrysosporium with 8 samples.

Results

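In Phanerodontia chrysosporium RP-78, a white-rot basidiomycete, 202 of 12746 gene models (1.58%) were expressed in vegetative mycelium, lower in young fruiting bodies and higher again in fruiting bodies. They were chosen from the deposited log2 RPKM values (log2 of the reads per kilobase of model, scaled by library) of the same libraries described here. The mean over mycelium libraries had to be at least 2 (4 RPKM), the mean over young fruiting bodies at least 1 below it, and the median over fruiting bodies at least 1 above that of young fruiting bodies. A difference of 1 on this scale is a 2-fold change. The fall and the return are therefore what the choice set, and they are given as a description. A subset of 1681 models met the conditions on level and fall, and the 202 members are 12.0% of these. The other 1479 models, which fell without such a return, serve as the set most like the members.

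The libraries of polyadenylated RNA came from 3 stages of 1 strain on the same glucose, malt, peptone and yeast extract agar under cellophane. Cultures grew at 37 °C in darkness over 7 days and were then moved to a moist chamber at 25 °C in dim light, where they fruited. Vegetative mycelium (n = 3) is the hyphal mat, the young fruiting body (n = 2) a compact mat of initials set off from the mycelium around it, and the fruiting body (n = 3) was taken once spores appeared on the lids. Whether mycelium was taken before the move is not given in the sources used here, and if it was, temperature, light and age cannot be told apart from stage. The design text calls the libraries biological replicates, but no label ties them to separate cultures, so p-values measure the spread between these libraries, which may be technical. Unique gene reads ranged from 16144543 to 35837246 per library.

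As background, the mycelium of a white-rot fungus secretes enzymes that break down plant polymers and takes up the sugars released, while in the fruiting body hyphae aggregate, differentiate and form the spore-bearing basidia. Fruiting bodies of this species are flat crusts on the surface they grow over, and they are themselves made of hyphae. Whether genes of growing hyphae are used again in this later tissue was not tested. In bulk RNA, fewer cells of a type and less RNA per cell cannot be told apart. The files pair the protein IDs with no gene names, so the models are given by ID, without roles.

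The libraries of the fruiting body stage did not resemble each other equally. Over all models tested, log2 CPM of fruiting body replicate 3 correlated with the mycelium libraries at r = 0.863 to 0.871, against 0.788 to 0.836 for replicates 1 and 2 (across models, which are not independent replicates). Fruiting body replicate 2 was sequenced on the flowcell of all mycelium and young fruiting body libraries, and replicates 1 and 3 were not. Values are given for each fruiting body library below.

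The members made up a sizeable part of the mycelial messenger RNA and little of that in young fruiting bodies. They took 9.46, 10.0 and 6.03% of unique reads in mycelium replicates 1, 2 and 3, and 0.521 and 0.609% in young fruiting body replicates 1 and 2. In fruiting body replicates 1, 2 and 3 they took 1.19, 1.67 and 3.19%. All 3 fruiting body libraries thus lay above both young fruiting body libraries and below every mycelium library. A few abundant members weighed heavily on these shares. Models 2983885 and 137372 held 221637 and 168950 of 17018503 unique reads in mycelium replicate 1. Models 137372 and 3024530 held 82490 and 71250 of 16144543 in fruiting body replicate 3. Without model 2991215, the most abundant member, the shares were 5.89, 5.29 and 4.89% in mycelium and 0.515 and 0.605% in young fruiting bodies, and those of fruiting body replicates 1 and 2 became 1.17 and 1.66%. The 1479 models without a return took 28.7, 24.8 and 24.2% in mycelium and 4.72 and 5.78% in young fruiting bodies. Their share was 4.20 and 5.45% for fruiting body replicates 1 and 2 and 12.2% for replicate 3, so this library alone among the fruiting stages lay higher in that set.

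The median member stood at 58.6, 62.3 and 53.5 RPKM in mycelium replicates 1, 2 and 3. It stood at 10.3 and 9.47 RPKM in the young fruiting bodies and reached 19.7, 32.7 and 33.4 RPKM across fruiting body replicates 1, 2 and 3. The median over all 12746 models lay between 20.0 and 22.1 RPKM in every library. On the log2 scale the median member fell by 2.18 from mycelium to young fruiting body, to 22.0% of its mycelial level, and the return had a median of 1.31. Its level in fruiting bodies was 60.2% of that in mycelium, a median log2 difference of -0.73, against 0.01 over all models at 4 RPKM or more in mycelium. The fall was at least 2 in 116 members and the return at least 2 in 35, with 24 reaching it in both steps. Falls were thus mostly larger than returns, and the return was the larger step in 36 of 202.

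**Figure D1:**
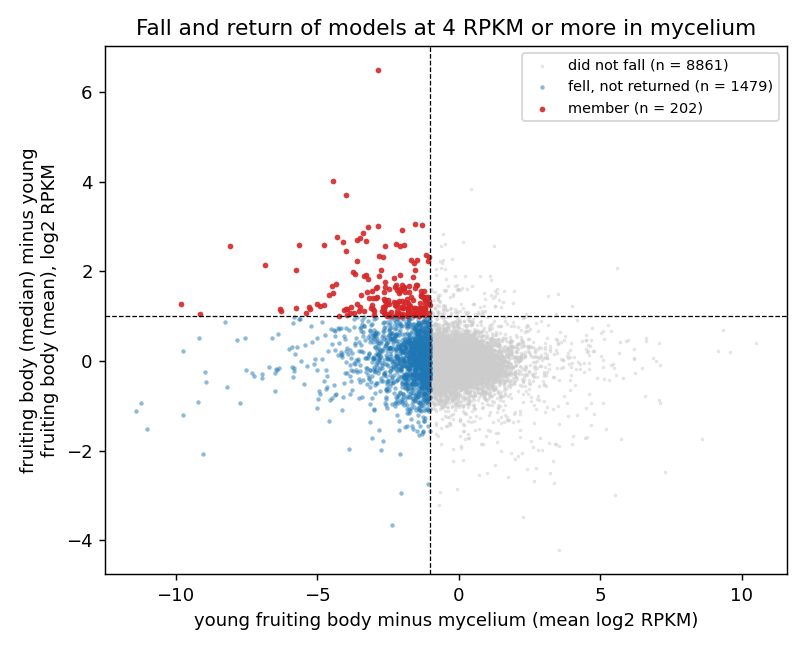
The fall from mycelium to young fruiting body (horizontal axis) and the step from young fruiting body to fruiting body (vertical axis) in log2 RPKM, for each of 10542 models with a mean log2 RPKM of at least 2 in mycelium. Dashed lines mark the thresholds of -1 and 1, the 202 members fill the upper left corner, and most members lie close to the threshold of the return, whose median is 1.31.

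The edgeR quasi-likelihood test with Benjamini-Hochberg adjustment over all 12510 models tested (adjusted p below 0.05) put these steps beside the spread between libraries. All 202 members passed the filter on low counts, which their level in mycelium had to allow. Of them 151 were called lower in young fruiting bodies than in mycelium, where 10.9% of all models were. The choice used this contrast, so nothing is read from the count, which became 57 and 70 without young fruiting body replicates 1 and 2, where 2.69 and 4.1% of all models were called lower. For the step to the fruiting body, 0 members were called higher, and 0% of all models were called (smallest adjusted p = 0.0698, edgeR). At an unadjusted p below 0.05 (edgeR) the step held 164 members and 987 models in all, again in a contrast that the choice used. DESeq2 called 80 members higher against 1.06% of all models, and both limma fits (voom, and trend on the matrix) 0. Without fruiting body replicate 3 edgeR called 23 members higher, against 0.361% of all models, and on the flowcell shared by all stages 34, against 0.43% of all models, where the lone fruiting body library is taken to vary like the other stages.

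Libraries overlapped little in the fall and more in the return. In 197 of 202 members both young fruiting body libraries lay below every mycelium library, as in 30.2% of all models. In 151 members all 3 fruiting body libraries lay above both young fruiting bodies, as in 10.2% of all models, and 148 met both conditions, as did 4.9% of all models. These shares come from contrasts the choice used. The 5 members whose young fruiting bodies overlapped mycelium, named after their values were seen, were models 2966108, 3024206, 2967390, 2880425 and 2971342. With young fruiting body replicate 1 or 2 alone in place of their mean, 161 and 155 members met both steps.

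The fruiting body libraries did not carry the return alike. A return of at least 1 above young fruiting bodies was seen in 115 members in replicate 1, 181 in replicate 2 and 172 in replicate 3. The median return was 1.06 in replicate 1, 1.42 in replicate 2 and 1.72 in replicate 3 (log2 RPKM, library minus the mean of young fruiting bodies). Replicate 1 was the lowest of the fruiting body libraries in 123 members and replicate 3 the highest in 107 (53.0%), where it was the highest in 44.8% of all models. Since the choice used the median of the libraries, every member had to return in at least 2 of them. A return in all 3 libraries was found in 64 members (31.7%), in replicates 2 and 3 in 87 (43.1%), in replicates 1 and 2 in 30 (14.9%), and in replicates 1 and 3 in 21 (10.4%).

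**Figure D2:**
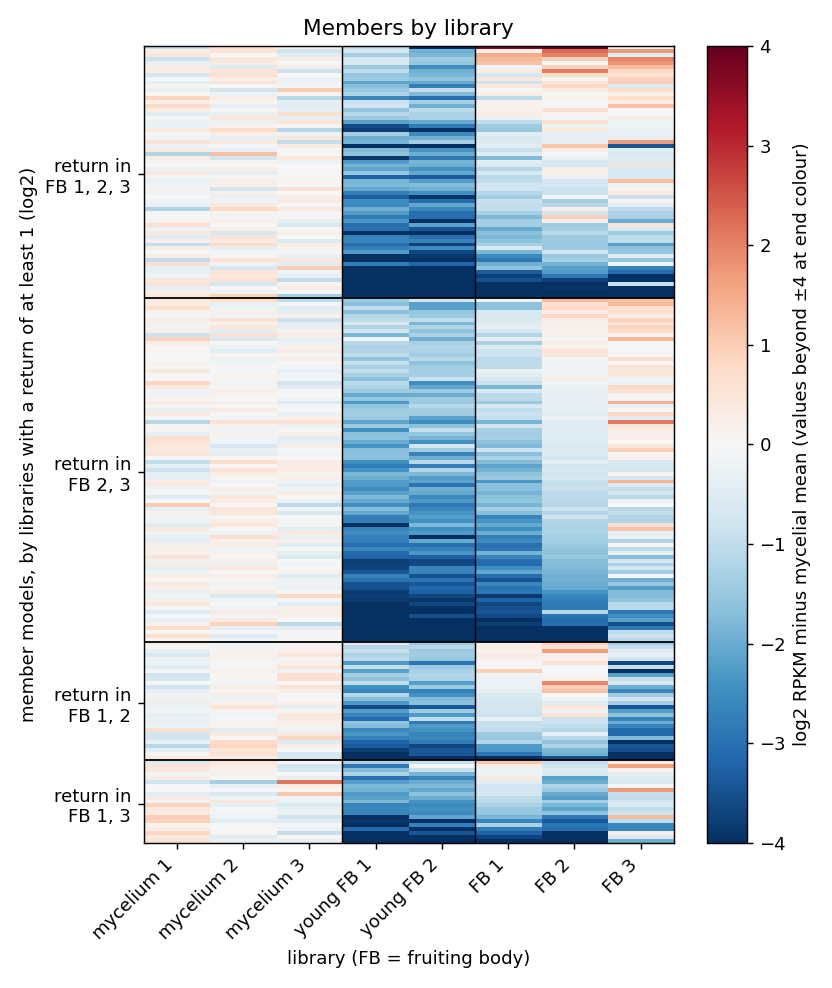
Log2 RPKM of each of the 202 members (rows) in each library (columns) relative to its mean in mycelium, with rows grouped by the fruiting body libraries that showed a return of at least 1 (64, 87, 30 and 21 members from top to bottom) and sorted within groups by the difference between fruiting body and mycelium. The young fruiting body columns are blue in nearly all rows, and the fruiting body columns are paler, with replicate 1 bluer in the second group and replicate 3 bluer in the third.

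The size of the return was set side by side between libraries. Over the 202 members, returns in replicates 1 and 2 correlated at r = 0.58, those in replicates 1 and 3 at r = -0.14, and those in replicates 2 and 3 at r = -0.04. These are descriptions over models, with the young fruiting body mean as a common term and the choice acting on all of them. In the 30 members that returned in replicates 1 and 2, the median return was 1.32 and 1.70 there and 0.07 in replicate 3. In the 87 that returned in replicates 2 and 3, it was 0.52 in replicate 1, 1.30 in replicate 2 and 1.94 in replicate 3. The 64 that returned in every library had medians of 1.47, 1.97 and 2.00.

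Models outside the choice also stood higher in fruiting body replicate 3. Among the 1479 models that fell without a return, the median difference from young fruiting bodies was -0.27 in replicate 1, 0.02 in replicate 2 and 0.68 in replicate 3. A rise of at least 1 was seen in 17 of these models (1.15%) in replicate 1, in 50 (3.38%) in replicate 2 and in 550 (37.2%) in replicate 3. Replicate 3 was the highest fruiting body library in 72.8% of them. How much of the members' return in replicate 3 goes with these higher values was not tested. Over all 10542 models at 4 RPKM or more in mycelium, the median difference was 0.03, 0.00 and 0.01, so replicate 3 was not higher in general.

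**Figure D3:**
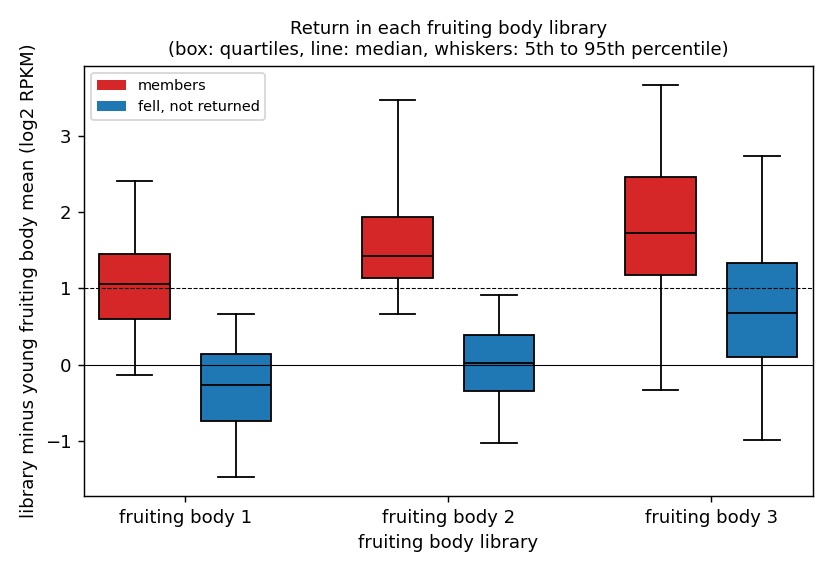
Difference between each fruiting body library and the mean of young fruiting bodies (log2 RPKM) in the 202 members and in the 1479 models that fell without a return; boxes give quartiles, lines medians and whiskers the 5th to 95th percentile. Among members the medians are 1.06, 1.42 and 1.72, and among the other models -0.27, 0.02 and 0.68, so both sets are highest in replicate 3.

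To read the pattern in libraries that had no part in a choice, the rule was applied to 1 library per stage. Of 154 models chosen in the libraries numbered 1, 62 (40.3%) met the whole rule in those numbered 2, against 2.09% of all models and 6.26% of the 1950 models that fell in replicate 1 without returning. Of 267 chosen in replicate 2, 62 (23.2%) met it in replicate 1, against 1.21% of all models and 3.86% of 1268 that fell without returning. The median return in the libraries not used was 0.87 and 0.61 (log2), and the median fall was -1.91 and -1.60. Both directions were kept by 112 of 154 (72.7%) and 199 of 267 (74.5%) of the chosen models, by 25.0 and 21.4% of all models, and by 38.7 and 40.6% of those that fell without returning.

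Replicate 3 separated these sets less. With mycelium and fruiting body replicate 3 and the young fruiting body library not used in the choice, 42.9% of the models chosen in replicate 1 met the rule. In the same libraries 25.0% of those that fell without returning met it, and 5.1% of all models. For the choice in replicate 2 the values were 37.5% and 33.6%, with 6.22% of all models. Both directions were kept in replicate 3 by 70.1 and 76.0% of the chosen models and by 73.3 and 74.1% of those that fell without returning. Models are not replicates, so these shares have no test.

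**Figure D4:**
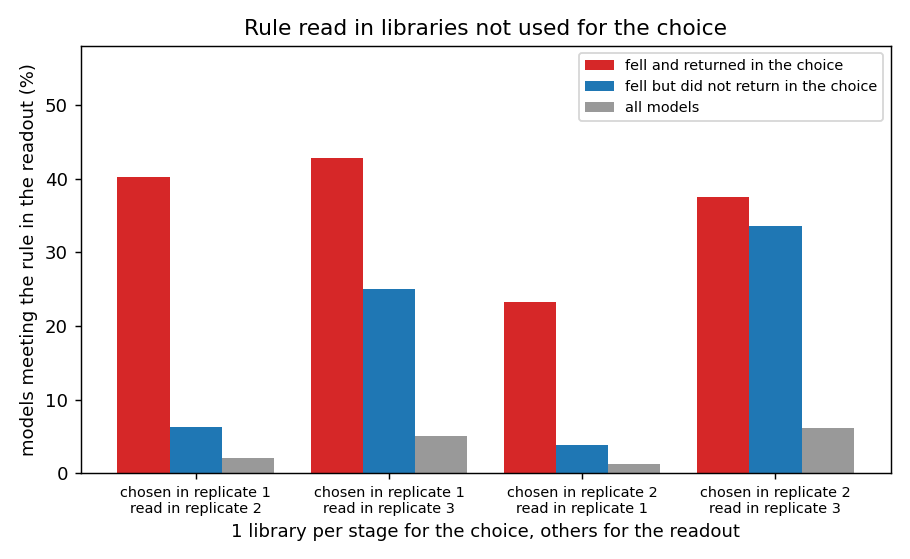
Share of models (%) that met the rule in libraries not used for their choice, with 1 library per stage in the choice and in the readout; readouts in replicate 3 take the young fruiting body library not used in the choice. Red bars are models that fell and returned in the choice (40.3, 42.9, 23.2 and 37.5%), blue bars those that fell without returning (6.26, 25.0, 3.86 and 33.6%), and grey bars all models (2.09, 5.1, 1.21 and 6.22%).

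The mature fruiting body did not restore mycelial levels in all members. In 116 members (57.4%) the fruiting body median lay within 2-fold of the mycelial mean, in 80 (39.6%) it was lower by 2-fold or more, and in 6 (2.97%) it was higher by 2-fold or more. The 116 had a median log2 RPKM of 5.24, 3.49 and 4.83 in mycelium, young and mature fruiting bodies. For the 80 that came back in part, the medians were 6.90, 3.08 and 4.62. Both sets ended at similar levels, and the second started higher. The split by the difference between fruiting body and mycelium favours this, so it is a description. For the 6 that overshot, the medians were 4.62, 3.46 and 6.99.

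Members were also described by their level in mycelium, which enters the choice and is the base of the percentages that follow, so their order is a description of the chosen set. Among the 37 members below 16 RPKM in mycelium, the median in fruiting bodies was 80.9% of the mycelial level. It was 62.4% in the 70 members from 16 to below 64 RPKM, 51.2% in the 67 from 64 to below 256 RPKM, and 30.6% in the 28 at 256 RPKM or more. The return, held at 1 or more by the choice, had medians of 1.30, 1.35, 1.33 and 1.21 (log2) in the same order, while the median fall deepened from -1.80 in the lowest range to -3.31 in the highest. The share of fallers that were members rose from 7.49% in the lowest of these ranges over 12.1 and 15.5% to 16% in the highest.

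Fruiting body and mycelium form a contrast that the choice did not set, although it used the libraries of both. Of 202 members 64 were called (edgeR), 31.7% against 31.8% of all models, so the members were called about as often as any model. Of these 62 were lower, against 13.4% of all models, and 2 higher, against 18.4%. The choice asked for a high level in the same mycelium libraries, which leans towards lower calls, so nothing is read from the split by direction. Among the models that fell without a return, 928 of the 1477 tested (62.8%) were called lower. Their definition puts the fruiting body median below the mycelial mean in every one (highest difference -0.04 in log2). Nothing is therefore read from this share. Of the 62 members called lower, 57 were among the 80 that came back in part and 5 among the 116 within 2-fold. These groups were set by the same difference between fruiting body and mycelium, so nothing is read from this division. Without fruiting body replicate 3, 98 members were called lower, against 24.7% of all models, and 2 higher, against 24.2%. The members called in either direction numbered 38 and 42 without mycelium replicates 2 and 3 and 20 with flowcell as a covariate. The shares of all models in these fits were 20.1, 19.6 and 9.94%, so the calls dropped in the whole data set. In 83 members every fruiting body library lay below every mycelium library, as in 20.7% of all models, and in 1 member, model 2966108, every fruiting body library lay above, as in 25.7% of all models.

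In the 6 members highest in mycelium, the fruiting body median lay between 2.16 and 8.54 below the mycelial mean in log2 RPKM, while single libraries came closer. Model 2991215 (580 bp) stood at 63914, 87530.0 and 18884 RPKM in mycelium, 100.4 and 71.3 RPKM in young fruiting bodies and 260.0, 175 and 174 RPKM in mature ones. All 3 fruiting body libraries lay above both young fruiting bodies, but far below mycelium, with a log2 fold change from mycelium of -8.13 ± 0.78 (SE, adjusted p = 0.000209, edgeR). Model 4943 (663 bp) stood at 6967, 10224 and 6252 RPKM in mycelium, 107 and 186 RPKM in young fruiting bodies and 577, 1037 and 434 RPKM in mature ones. Again the stages did not overlap, and replicate 2 was the highest fruiting body library. Model 2917481 (840 bp) stood at 1174, 956 and 2923 RPKM in mycelium, 42.2 and 72.4 RPKM in young fruiting bodies and 483, 332 and 231 RPKM in mature ones. It came back furthest of these 6, with a median log2 difference from mycelium of -2.16.

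Among these abundant members, single libraries stood apart in models 2983885 and 137372. Model 2983885 (1657 bp) stood at 8163, 7936 and 4023 RPKM in mycelium, 86.8 and 262 RPKM in young fruiting bodies and 318, 537 and 119.9 RPKM in mature ones. Fruiting body replicate 3 lay between its young fruiting body libraries. Model 137372 (1656 bp) stood at 6226, 4843 and 6205 RPKM in mycelium, 6.31 and 6.47 RPKM in young fruiting bodies and 8.08, 15.4 and 2704 RPKM in mature ones. In replicate 1 it was close to young fruiting bodies and in replicate 2 higher by 1.27 (log2) than their mean. In replicate 3 it was much closer to mycelium, though below every mycelium library. Its log2 fold change from mycelium was -2.66 ± 1.70 (SE, adjusted p = 0.264, edgeR) with all libraries and -8.95 without replicate 3 (adjusted p = 1.37e-06, edgeR).

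Model 3032690, at 162 bp the shortest member, stood at 6382, 4738 and 5233 RPKM in mycelium, 19.3 and 21.0 RPKM in young fruiting bodies and 49.3, 119.8 and 199.5 RPKM in mature ones. No stages overlapped, and the log2 fold change from mycelium to fruiting body was -5.47 ± 0.52 (SE, adjusted p = 0.000207, edgeR). The longest member, model 2254017 (3594 bp), stood at 26.8, 25.5 and 31.1 RPKM in mycelium, 9.94 and 6.30 RPKM in young fruiting bodies and 14.4, 24.1 and 20.7 RPKM in mature ones. Its fruiting bodies lay between the other stages without overlap with either.

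**Figure D5:**
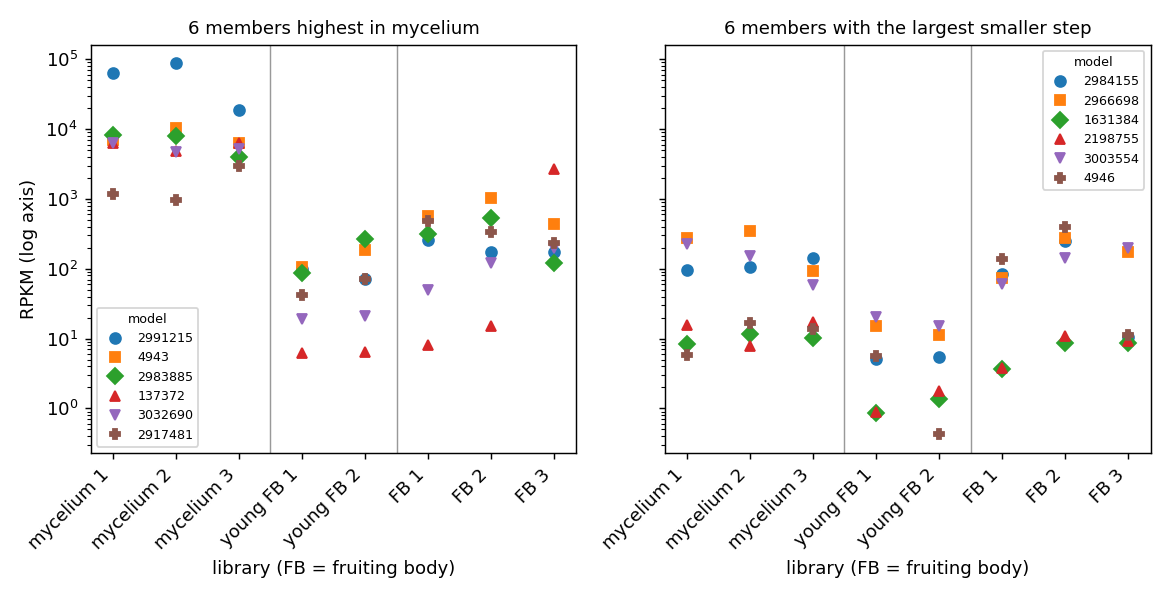
RPKM (log axis) of the 6 members with the highest mean in mycelium (left) and of the 6 whose smaller step, fall or return, was largest (right), with 1 point per library and no averaging. On the left every fruiting body point lies below every mycelium point of its model, the closest being model 137372 in replicate 3 (2704 RPKM) and model 2917481 in replicate 1 (483 RPKM). On the right most fruiting body points reach at least the lowest mycelium value. Replicate 1 of models 2984155, 2966698, 1631384 and 2198755 lies below it, as does replicate 3 of model 2984155 (10.5 RPKM). Model 4946 drops to 11.2 RPKM in replicate 3, within its mycelial range.

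The 6 members with the deepest dip were ranked by the smaller of the fall and the return, so their dip is what chose them, and their libraries differed in how far they followed it. Model 2966698 (426 bp) stood at 277, 351 and 94.1 RPKM in mycelium, 15.3 and 11.4 RPKM in young fruiting bodies and 73.8, 273 and 173 RPKM in mature ones. Model 3003554 (774 bp) stood at 226, 150.1 and 57.9 RPKM in mycelium, 20.3 and 15.1 RPKM in young fruiting bodies and 60.2, 142 and 199 RPKM in mature ones. In both, young fruiting bodies lay below every other library, and fruiting body and mycelium overlapped. Model 2198755 (552 bp) dipped at a lower level, from 15.9, 7.82 and 17.4 RPKM in mycelium to 0.892 and 1.77 RPKM in young fruiting bodies, with 3.83, 11 and 9.10 RPKM in fruiting bodies. Model 1631384 (797 bp) stood at 8.23, 11.4 and 10.2 RPKM in mycelium, 0.847 and 1.39 RPKM in young fruiting bodies and 3.65, 8.55 and 8.68 RPKM in mature ones. In both of these low models fruiting body replicate 1 was the lowest of its stage. Of all reads of model 1631384, 5.40% also matched other models, so its value is uncertain by that share.

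Models 2984155 and 4946 combined a strong return in fruiting body replicates 1 and 2 with a weak or smaller one in replicate 3. Model 2984155 (744 bp) stood at 95.4, 106 and 144 RPKM in mycelium, 5.03 and 5.44 RPKM in young fruiting bodies and 85.3, 246 and 10.5 RPKM in mature ones. Its return was 4.03, 5.56 and 1.01 (log2) in replicates 1, 2 and 3. Model 4946 (357 bp) stood at 5.90, 16.7 and 13.7 RPKM in mycelium, 5.67 and 0.425 RPKM in young fruiting bodies and 139.8, 394 and 11.2 RPKM in mature ones. Its young fruiting body libraries differed widely, on 55 and 3 unique reads, so its fall rests on a count of 3. Its largest step was therefore upwards, and replicate 3 lay within the mycelial range.

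The overshoot above mycelium was led by models 4946, 3024206, 1592241 and 2966108. For model 4946 the log2 fold change from mycelium to fruiting body was 3.90 ± 1.18 (SE, adjusted p = 0.0355, edgeR). It was called in none of the fits that left out a single mycelium library (adjusted p = 0.0949 to 0.117, edgeR), nor without fruiting body replicates 1 or 2 (0.0690 and 0.124) or under limma-voom (0.162). Model 2966108 (1107 bp) stood at 5.76, 14.1 and 12.9 RPKM in mycelium, 6.41 and 3.78 RPKM in young fruiting bodies and 24.7, 19.6 and 39.1 RPKM in mature ones. All fruiting bodies lay above all mycelium, and edgeR put the log2 fold change at 1.35 ± 0.41 (SE, adjusted p = 0.0358). That call was also absent without any single mycelium library (adjusted p = 0.0606 to 0.0919, edgeR), without fruiting body replicates 1 or 3 (0.0655 and 0.0554). It was also absent when flowcell entered the model (adjusted p = 0.331, edgeR).

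Model 3024206 (486 bp) stood at 13.9, 17.0 and 6.72 RPKM in mycelium, 7.40 and 3.07 RPKM in young fruiting bodies and 13.9, 55.5 and 39.0 RPKM in mature ones. Fruiting body replicate 1 lay within its mycelial range, and the log2 fold change was 1.53 ± 0.57 (SE, adjusted p = 0.0711, edgeR). Model 1592241 (1007 bp) stood at 132, 94.9 and 66.9 RPKM in mycelium, 37.6 and 27.4 RPKM in young fruiting bodies and 266, 372 and 70.9 RPKM in mature ones. Here replicate 3 lay within the mycelial range, and edgeR's log2 fold change, 1.27 ± 0.53 (SE, adjusted p = 0.0994), became 1.70 without it (adjusted p = 0.00126, edgeR).

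Fruiting body replicate 3 departed most from replicates 1 and 2 in models 137372, 2983571 and 2711244 upwards and in models 3027328, 3027940 and 4946 downwards. Model 2983571 (1247 bp) stood at 283, 127 and 168 RPKM in mycelium, 2.85 and 1.96 RPKM in young fruiting bodies and 3.85, 5.13 and 101 RPKM in mature ones. Its log2 fold change from mycelium was -2.40 ± 1.10 (SE, adjusted p = 0.130, edgeR), and -5.43 without replicate 3 (adjusted p = 1.13e-05, edgeR). Model 2711244 (733 bp) stood at 106, 104 and 109.6 RPKM in mycelium, 1.57 and 2.45 RPKM in young fruiting bodies and 1.29, 4.44 and 53.1 RPKM in mature ones. In all 3 models that stood out upwards, replicate 3 lay below every mycelium library but closer to mycelium than replicates 1 and 2. Replicate 1 lay near young fruiting bodies. In models 137372, 2983571 and 2711244 replicate 2 lay 1.27, 1.12 and 1.18 (log2) above their mean. Model 3027940 (1647 bp) stood at 307, 359 and 282 RPKM in mycelium, 69.6 and 127 RPKM in young fruiting bodies and 608, 299.7 and 15.4 RPKM in mature ones. Model 3027328 (444 bp) stood at 22.3, 47.9 and 19.4 RPKM in mycelium, 2.92 and 3.95 RPKM in young fruiting bodies and 12.1, 9 and 0.183 RPKM in mature ones, the last on 1 unique read. In both of these models replicate 3 lay below every other library, so it was not nearer to mycelium in every member.

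Length, which the choice used only through the scaling of reads, set the members apart in description. Their median length was 987 bp (quartiles 649 and 1392), against 1219 bp in models that fell without a return and 1221 bp over all models. Models over 2000 bp made up 4.46% of members, 13% of the models without a return and 19.0% of all models. The 64 members that returned in every fruiting body library had a median of 835 bp, the shortest of the groups by library. Members varied more between replicates than models in general. Their median SD of log2 RPKM was 0.36 over mycelium and 0.75 over fruiting bodies, against 0.25 and 0.37 over all models. The models without a return were near the members, at 0.34 and 0.66. The choice used the same libraries, so these values are a description.

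At the edge of the choice, models 2949955 and 8339 lay just inside the threshold of the return, at 1.00, and model 2902180 just inside that of the fall, at -1.01. Just outside lay models 3005824, 2983565 and 2908230, with returns of 1.00, 0.99 and 0.98 in log2 RPKM. Model 3005824 (552 bp) stood at 2515, 1389 and 652 RPKM in mycelium, 578 and 374 RPKM in young fruiting bodies and 594, 928 and 3218 RPKM in mature ones. Models on either side of the threshold thus differ by less than their replicates do.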

How the data were processed

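Each deposited library file holds read counts, unique and total, for 13602 gene models with their lengths in bp. A matrix deposited by the authors holds log2 values for 12746 models. For 99% of models with at least 100 reads these lie within 0.00596 of log2(total reads / length) after a shift per library, and they were read as log2 RPKM. R 3.0.2, edgeR 3.4.2 and limma 3.18.13 appear in the submitters' processing notes, with no role given. The aligner and the genome release are not given in the sources used here. The library kit does not mark strand, so overlapping antisense models cannot be told apart.

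Members were chosen on the matrix, and RPKM values in the text are its values taken out of the log. The members, lists and tests were chosen with earlier results of these data known. Unique reads were tested in R 4.3.3 with edgeR 4.0.16 (filterByExpr by stage, TMM, robust quasi-likelihood fit, all 8 libraries, stage only). SE is the absolute log2 fold change divided by the square root of F. Alternatives used DESeq2 1.42.0 and limma 3.58.1. The fit was tested on simulated data. A count of 0 allows up to 3 reads, 0.0837 to 0.186 CPM, for counting error only. Models were named by fixed ranks: the 6 highest in mycelium, the 6 deepest dips, the 4 highest and 4 lowest against mycelium, the 3 extremes of fruiting body replicate 3 each way, the shortest and longest, and 3 on either side of the thresholds.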

Additional observations from a re-analysis of the deposited data

How the results depend on the processing

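The number of members was 65 with steps of 1.5 and 601 with steps of 0.5 in log2. With each library left out and members chosen again, it ranged from 173 to 420, the highest without fruiting body replicate 1 and the lowest without replicate 3. Without replicate 3, 139 of the 202 members were chosen again, and 181 without replicate 1. The other settings gave 165 to 259 members, and the median difference between fruiting body and mycelium ranged from -1.003 to -0.54 over all of them.

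In the step from young fruiting body to fruiting body, which the choice set, 0 members and 0% of all models were called in the reported fit. The members called numbered 80 under DESeq2 and 1 with the flowcell covariate, beside 1.88 and 0.00799% of all models. With each library left out they ranged from 0 to 23, the highest without fruiting body replicate 3, where 0.649% of all models were called. Within the shared flowcell, with its lone fruiting body library, the median log2 fold change of the members was 1.40. Members called between fruiting body and mycelium went from 64 to 20 with the flowcell covariate. The share of all models called went from 31.8 to 9.94%, where the fitted fruiting body level rests on replicate 2. With each library left out the members called ranged from 38, without mycelium replicate 2, to 100, without fruiting body replicate 3. The shares of all models called in these fits were 20.1 and 48.9%. Between young fruiting body and mycelium the range was 57 to 186 around 151. The highest of these counts came without fruiting body replicate 3, where 41.2% of all models were called, against 26.0% in the reported fit. The lowest came without young fruiting body replicate 1, which leaves 1 library of that stage, and fewer of all models were called there too. The counts of members thus moved with those of all models. What caused these shifts was not tested.

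With the replicate number as a block, 127 members were called in young fruiting body against mycelium, beside 17.7% of all models. In fruiting body against young fruiting body 0 members and 0% of all models were called. For fruiting body against mycelium the block gave 63 members, beside 27.9% of all models. Same-numbered libraries did not deviate together in every pair (r = -0.278 to 0.196), so the numbers were not taken to pair the libraries.

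Of 154 models chosen in replicate 1, 109 kept both directions and the mycelial level in replicate 2. With choice steps of 1.5, 34 of 59 met the rule. For the reverse these were 197 of 267 and 38 of 121. Both directions, without the condition on level, were kept by 25.0 and 21.4% of all models and 38.7 and 40.6% of those that fell without returning. In replicate 3, 100 of those chosen in replicate 2 (37.5%) met the rule. So did 33.6% of models that fell without returning and 6.22% of all models. Of 152 values of named models between fruiting body and mycelium, 0 changed sign, 13 gained and 16 lost their call.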

Other observations

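The opposite course, a rise of at least 1 in log2 RPKM from mycelium to young fruiting body followed by a fall of at least 1 to the fruiting body median, was met by 105 models at 4 RPKM or more in young fruiting bodies. These were 6.74% of the 1558 models with such a rise, beside 12.0% for the members among models with a fall. In 7 of the 202 members more than 1% of reads also matched other models, at most 14.1% in model 2722694, so how much of their values is their own is uncertain.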
